A study of Mus musculus with 9 samples.

Results

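Matrix metalloproteinases and their Timp inhibitors were examined in the gastrocnemius, the large calf muscle, of newborn mice. The 10 genes were chosen by name from the 55471 genes of the count table: the metalloproteinases Mmp2, Mmp3, Mmp11, Mmp14, Mmp15 and Mmp23 and the inhibitors Timp1, Timp2, Timp3 and Timp4. They were picked because genes of collagen turnover had leaned lower in mutant muscle in these same libraries. The difference of KO1, KO3 and KO5, or of any mutants, from the controls is therefore described without a test, and counts of members past a threshold are given as a description only.

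RNA came from 5 Shank3Δ11(-/-) mice (KO1 to KO5) and 4 Shank3(+/+) control mice (WT1 to WT4), all taken at postnatal day 0 or 1. The labels give C57BL/6 as the strain background of every mouse, and per the methods the mutants came from heterozygous C57BL/6JRj parents. Each library held the muscle of 1 mouse, and the labels name no treatment. Shank3 codes for a scaffold protein of synapses that is also found in striated muscle, and the mutants carried the Δ11 allele on both chromosomes. The study compared KO1, KO3 and KO5 with the 4 controls and left KO2 and KO4 out for insufficient reads.

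Metalloproteinases are zinc enzymes that cut collagens, laminins, proteoglycans and other proteins of the extracellular matrix, and most are made as inactive precursors. Timps sit in the active site of these enzymes and block it. At the surface of fibroblasts and other cells, Mmp14 together with Timp2 binds the precursor of Mmp2 and starts its activation, so these 3 proteins work as a unit while the matrix around growing muscle fibres is remodelled.

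Library totals, the counts assigned to genes, ran from 26444372 to 40471957, with a median of 31435732. By this measure KO2 (28211941) and KO4 (40471957) were not the shallowest. The study judged total and mapped reads, which were not compared here. Shank3 itself was at 25.8 to 35.1 counts per 1e6 counts of the library (CPM) in the mutants and at 32.5 to 38.5 CPM in the controls. Counts over the whole gene do not resolve a deletion of a part of it. Muscle fibre markers such as Acta1, Ckm and Myh3 summed to 61001 to 68689 CPM over the 9 mice. Among them Myh3, the embryonic myosin, was at 2095 CPM in KO5 against 4174 to 5787 CPM in the other 8, whereas Myh8, Mylpf and Tnnt3 were highest in KO5. Markers of other tissues differed between single mice: adipocyte markers summed to 344 CPM in KO5 against 39.2 to 104 CPM in the rest, Schwann cell markers to 690 CPM in KO5 against 297 to 410 CPM, tendon markers to 1193 CPM in KO4 against 541 to 820 CPM, blood markers to 5777 CPM in KO1 against 1224 to 2194 CPM, and skin markers to 51.2 CPM in WT4 against 7.14 to 25.6 CPM. Xist, transcribed from the inactive X chromosome, exceeded 100 CPM in KO3 and KO5 and in WT3 and WT4, and the other 5 mice had 3.23 CPM or less. In bulk muscle, fewer cells of a type and less RNA per cell cannot be told apart.

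The starts of these genes differed in base composition. RefSeq promoter windows on GRCm38.p6, from 250 bases before to 50 after the start, were found for 9 of the 10 genes. They were searched on both strands for the AP-1 motif TGANTCA, the TATA motif TATAAA and the GC box GGGCGG, which 7.81%, 13.6% and 35.7% of 32851 mouse windows hold. Mmp3, the member with the fewest counts, and Mmp14 and Timp2, a membrane-bound enzyme and an inhibitor with at least 4651 counts in every mouse, are shown with motif letters in capitals.

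Mmp3, chr9:7445572-7445871, plus strand: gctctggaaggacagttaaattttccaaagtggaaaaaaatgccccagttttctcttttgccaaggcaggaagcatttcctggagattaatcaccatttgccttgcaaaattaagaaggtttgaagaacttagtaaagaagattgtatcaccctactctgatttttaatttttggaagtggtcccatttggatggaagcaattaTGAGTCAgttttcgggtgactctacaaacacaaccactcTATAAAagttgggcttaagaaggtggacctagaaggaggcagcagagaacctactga

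Mmp14, chr14:54431348-54431647, plus strand: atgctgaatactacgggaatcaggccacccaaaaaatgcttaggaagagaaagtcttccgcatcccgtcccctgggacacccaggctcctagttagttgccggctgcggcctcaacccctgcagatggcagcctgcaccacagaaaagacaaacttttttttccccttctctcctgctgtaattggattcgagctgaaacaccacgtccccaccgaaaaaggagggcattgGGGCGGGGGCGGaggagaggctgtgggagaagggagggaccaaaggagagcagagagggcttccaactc

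Timp2, chr11:118355362-118355661, minus strand: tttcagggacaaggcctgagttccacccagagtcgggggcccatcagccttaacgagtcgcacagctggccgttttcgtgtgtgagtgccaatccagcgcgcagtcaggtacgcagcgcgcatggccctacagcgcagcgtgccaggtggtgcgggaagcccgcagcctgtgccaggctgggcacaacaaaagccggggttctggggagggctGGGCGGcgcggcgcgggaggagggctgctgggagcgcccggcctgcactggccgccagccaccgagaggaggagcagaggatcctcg

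The Mmp3 window held 1 AP-1 motif, 46 bases before the start, and 1 TATA motif, 7 bases before the start. No other member's window held either. It had 1 CpG and 40% GC, where the median mouse window has 7 CpGs and 52.7% GC. The Mmp14 window held 2 GC boxes and 10 CpGs, and the Timp2 window 1 GC box, 25 CpGs and 68.7% GC. Mmp11, Mmp15, Timp1 and Timp3 also held at least 1 GC box, as did 1 of the windows of Mmp23, whereas Timp4 held none of the 3 motifs and 2 CpGs. A match in letters does not show that a factor binds there.

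Per length of exon, Mmp2 and Timp2 were the most abundant members and Mmp3 was close to absent. Mean levels over the 9 mice were 56.8 ± 5.81 CPM per kilobase for Mmp2, 55.7 ± 8.23 for Timp2 and 33.0 ± 4.30 for Mmp14 (SD, n = 9). The 3 genes of the Mmp2 activation unit thus headed the order. Timp3 followed at 14.0 ± 1.00, Mmp15 at 13.5 ± 1.43, Mmp11 at 10.9 ± 1.68, Timp1 at 9.60 ± 3.22 and Mmp23 at 7.10 ± 1.70 CPM per kilobase. Timp4 was at 1.22 ± 0.326 and Mmp3 at 0.0160 ± 0.0229.

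Neighbours in that order were compared within each mouse by a 2-sided exact permutation test of sign flips on log2(CPM per kilobase + 0.1), adjusted over the 9 neighbouring pairs. Timp2 exceeded Mmp14 by 0.75 ± 0.22 log2 units, Mmp14 exceeded Timp3 by 1.22 ± 0.22, and Mmp23 exceeded Timp4 by 2.46 ± 0.60 (SD, n = 9), each in 9 of 9 mice with an adjusted exact p of 0.00879. Timp4 over Mmp3 gave the same adjusted exact p. The unadjusted exact p of these 4 pairs, 0.00391, is the smallest that 9 mice can give. Mmp15 exceeded Mmp11 in 8 of 9 mice by 0.31 ± 0.22 (adjusted exact p = 0.0211). The other 4 neighbouring pairs did not pass: Mmp2 and Timp2 (adjusted exact p = 0.312), Timp3 and Mmp15 (0.328), Mmp11 and Timp1 (0.186), and Timp1 and Mmp23 (0.0703). The order was the same in the 4 controls alone. With the longest transcript as the length, Mmp14 stood above Timp2 and Mmp23 above Timp1, so the places of those genes rest on the length chosen.

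**Figure D1:**
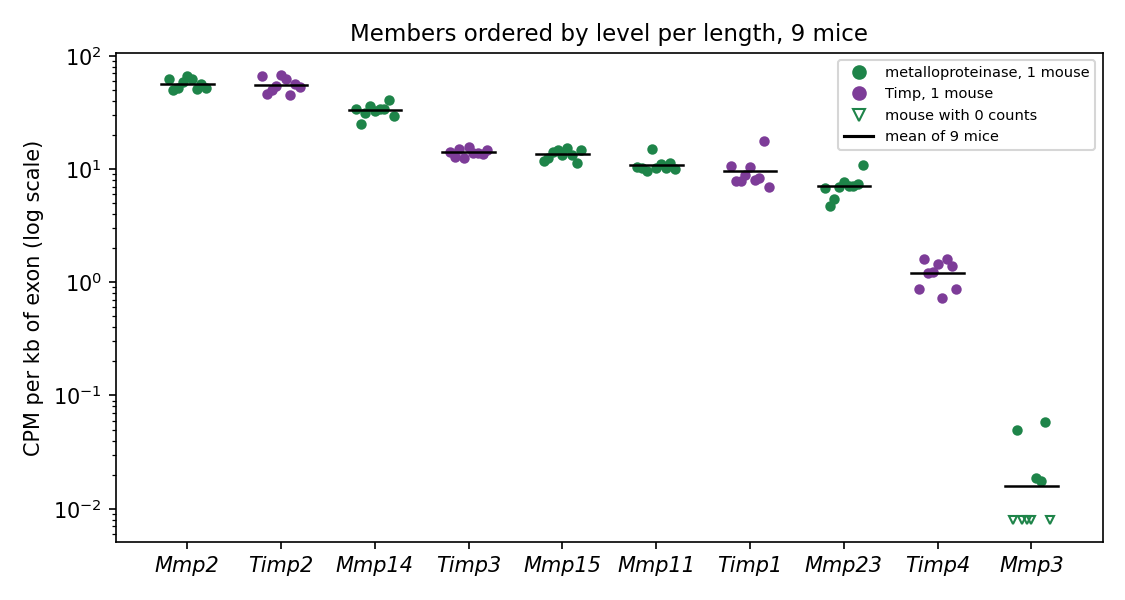
Level of each of the 10 genes per kilobase of exon (y axis, CPM per kilobase, log scale), in order of the mean (black line). Each point is 1 of 9 mice, green for metalloproteinases and purple for Timps; open triangles mark mice with 0 Mmp3 counts. Mmp2, Timp2 and Mmp14 lie highest, and Mmp3 lies below every other gene in every mouse.

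Mmp2 (ENSMUSG00000031740, chr8:92827291-92853420, plus strand, GRCm38), the gelatinase that cuts denatured collagen and the type IV collagen of basement membranes, overlapped between the genotypes. It was at 222 CPM in KO1, 211 in KO2, 171 in KO3, 190 in KO4 and 176 in KO5, and at 209 CPM in WT1, 169 in WT2, 177 in WT3 and 200 in WT4. KO1 and KO2 lay above every control, and the other 3 mutants lay within the range of the controls. Against the controls, the log2 fold change of KO1, KO3 and KO5 was -0.00096 ± 0.13 (SE, edgeR).

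Mmp14 (ENSMUSG00000000957, chr14:54431612-54445364, plus strand), the membrane-type enzyme that cuts fibrillar collagen and activates Mmp2, was at 196 CPM in KO1, 202 in KO2, 202 in KO3, 243 in KO4 and 177 in KO5. In the controls it was at 202 CPM in WT1, 149 in WT2, 187 in WT3 and 213 in WT4. KO4 was the highest mouse and WT2 the lowest, and the other 7 lay between 177 and 213 CPM. The log2 fold change was 0.02 ± 0.13 (SE). Col1a1, a fibrillar collagen that Mmp14 cuts, was also highest in KO4, at 12987 CPM.

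Mmp15 (ENSMUSG00000031790, chr8:95352268-95375080, plus strand), a second membrane-type enzyme, was at 71.9 CPM in KO1, 83.6 in KO2, 72.4 in KO3, 61.1 in KO4 and 79.8 in KO5. In the controls it was at 63.2 CPM in WT1, 67.4 in WT2, 76.0 in WT3 and 79.5 in WT4. Here KO4, the highest mouse for Mmp14, was the lowest, and the genotypes overlapped. Its log2 fold change was 0.05 ± 0.11 (SE).

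Mmp11 (ENSMUSG00000000901, chr10:75923222-75936496, minus strand), stromelysin-3, which is activated inside the cell by furin, was at 28.4 CPM in KO1, 30.8 in KO2, 28.3 in KO3, 31.3 in KO4 and 27.7 in KO5. In the controls it was at 29.2 CPM in WT1, 28.3 in WT2, 26.5 in WT3 and 42.1 in WT4. WT4 alone stood above the mutants. The log2 fold change was -0.17 ± 0.16 (SE), the lowest among the members, and 0.0047 without WT4. Its exons share 155 bases with Chchd10 on the opposite strand, which was at 61.8 to 87.8 CPM, and whether the counting used strand is not given in the sources used here.

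Mmp3 (ENSMUSG00000043613, chr9:7445822-7455975, plus strand), stromelysin-1, which cuts proteoglycans and activates other metalloproteinases, had 9 counts in all 9 libraries together. There were 0, 1, 1, 4 and 0 counts in KO1 to KO5 and 0, 3, 0 and 0 in WT1 to WT4. These pool to 0.0381 CPM in the mutants and 0.0238 CPM in the controls, and 3 counts, the most that a reading of 0 allows, are 0.114 CPM in the shallowest library. No difference was detectable at this depth, and Mmp3 was the 1 member that did not pass the filter on low counts.

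Mmp23 (ENSMUSG00000029061, chr4:155650655-155653384, minus strand), a membrane-anchored member of the family that furin-like proteases release from the cell, was the only member whose 5 mutants all lay above the 4 controls. It was at 17.8 CPM in KO1, 16.6 in KO2, 16.6 in KO3, 17.2 in KO4 and 25.4 in KO5, and at 15.9 CPM in WT1, 11.1 in WT2, 12.7 in WT3 and 16.1 in WT4. Most of the mutants sat just above the higher controls, and KO5 stood far above all others. The log2 fold change was 0.51 ± 0.19 (SE), the highest among the members. It was 0.29 without KO5. Blocking by replicate number gave 0.27 among the 7 mice of the study's comparison, where Timp4 (0.55) was the highest member. Under either of these settings the unadjusted edgeR p of Mmp23 was no longer below 0.05. When all 9 mice were fitted with such a block, that p stayed below 0.05, at a log2 fold change of 0.31. The gap between the lowest mutant (16.6 ± 0.723 CPM, SD of counting error) and the highest control (16.1 ± 0.725 CPM) was smaller than that error, and the separation was lost when libraries were scaled by their totals only. No member had all 5 mutants below every control. Of all genes tested, 0.307% had all 5 mutants above and 0.371% all 5 below every control, and since this contrast chose the members nothing is read from these shares.

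KO5, the mouse with the most Mmp23, also had the highest sums of adipocyte and Schwann cell markers and the lowest Myh3. The gene closest to Mmp23 over the 9 mice was Dpt (r = 0.97 on log2 CPM), a fibroblast matrix gene, at 172 CPM in KO5 against 45.9 to 120 CPM in the rest. Other markers of the fibroblast list were mixed in KO5. Pdgfra was lowest there, at 90.2 CPM against 113 to 150 CPM, whereas Ly6a was at 26.7 CPM against 14.2 to 22.2 CPM in the controls. The sum of the list in KO5 (1200 CPM, of which Col6a3 gave 627) lay within the range of the controls (1014 to 1504 CPM). In KO1, KO3 and KO5, 4 of the 7 genes of the list lay higher and 3 lower. The part of these markers in the Mmp23 values was not tested. Within the mice with Xist above 100 CPM, which include KO5, mean Mmp23 was 21.04 CPM in 2 mutants and 14.4 in 2 controls. Within those of low Xist it was 17.2 CPM in 3 mutants and 13.5 in 2 controls.

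**Figure D2:**
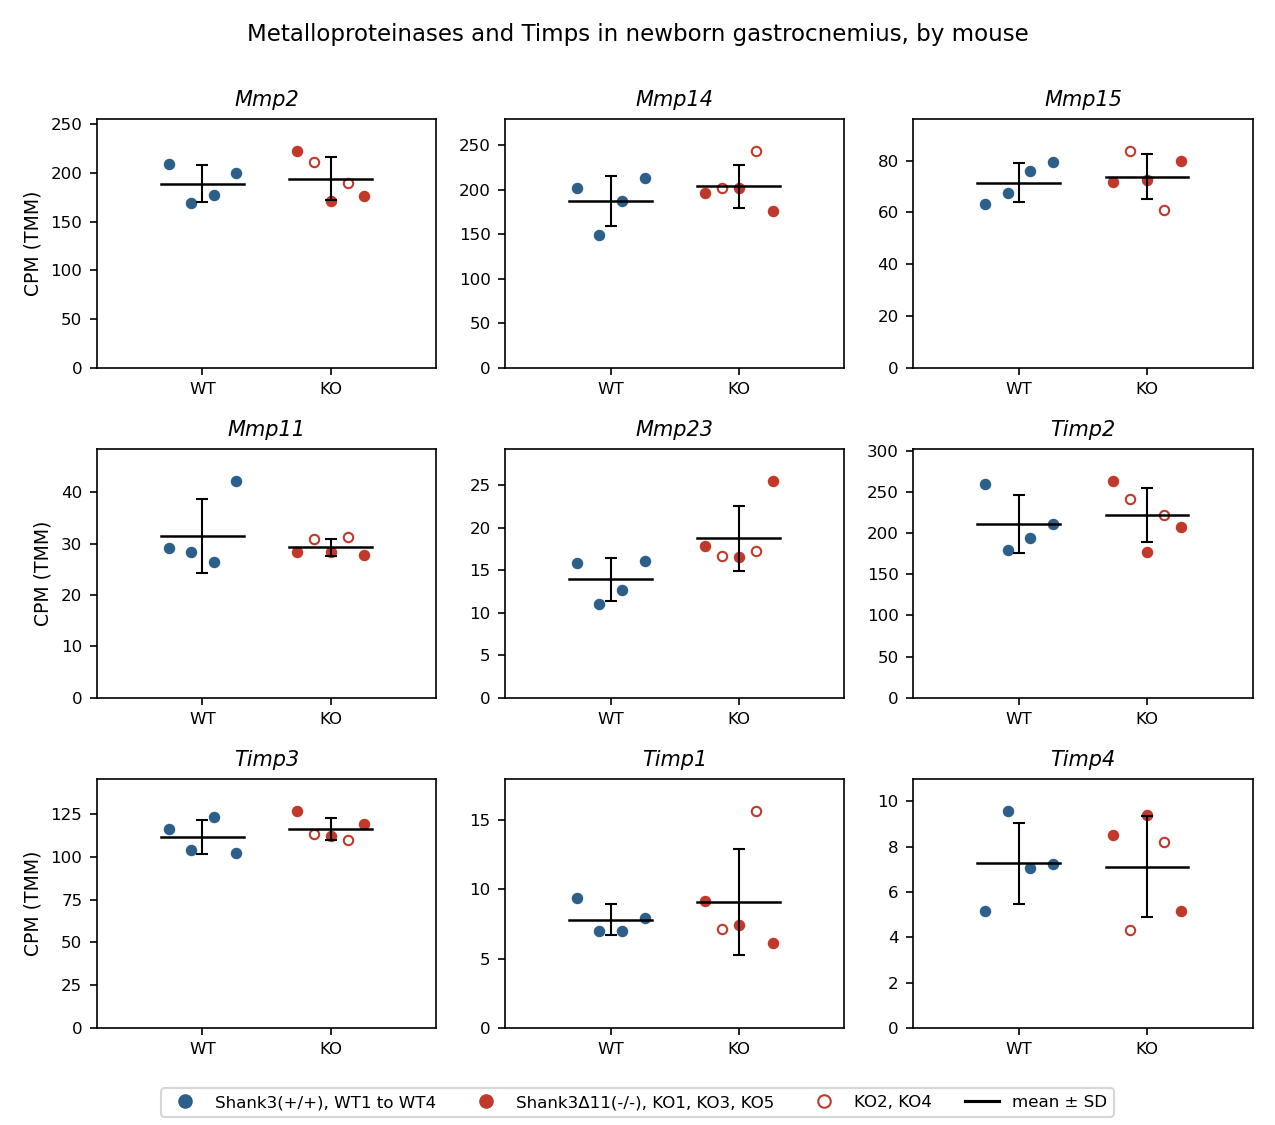
CPM (y axis, TMM-scaled, from 0) of the 9 genes that passed the filter on low counts, in Shank3(+/+) (WT, blue, n = 4) and Shank3Δ11(-/-) mice (KO, red, n = 5). Filled points are the mice of the study's comparison, open points KO2 and KO4, and lines and bars the mean ± SD over all mice of the genotype. Ranges overlap in every panel except Mmp23, where KO5 stands at 25.4 CPM.

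Timp2 (ENSMUSG00000017466, chr11:118301069-118355740, minus strand), the inhibitor that also takes part in Mmp2 activation, was at 263 CPM in KO1, 241 in KO2, 177 in KO3, 222 in KO4 and 208 in KO5. In the controls it was at 260 CPM in WT1, 179 in WT2, 194 in WT3 and 211 in WT4. KO1, which also had the highest sum of blood markers, and WT1 had the most and KO3 and WT2 the least, which is the same set of extremes in both genotypes as for Mmp2. Its log2 fold change was 0.02 ± 0.16 (SE).

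Timp3 (ENSMUSG00000020044, chr10:86300372-86349506, plus strand), the inhibitor that binds to the matrix and also blocks Adam proteinases, was at 127 CPM in KO1, 113 in KO2, 112 in KO3, 110 in KO4 and 119 in KO5. In the controls it was at 116 CPM in WT1, 104 in WT2, 123 in WT3 and 103 in WT4. It varied least of all members, with a coefficient of variation of 7.15% over the 9 mice, and the log2 fold change was 0.09 ± 0.10 (SE). Timp3 lies inside Syn3 on the opposite strand and shares 1733 exonic bases with it. Syn3, a synapsin of nerve cells, was counted at 40.8 to 61.8 CPM, and how reads were divided between both genes is not known here.

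Timp1 (ENSMUSG00000001131, chrX:20870166-20874735, plus strand), a secreted inhibitor that blocks membrane-type enzymes poorly, was at 9.18 CPM in KO1, 7.10 in KO2, 7.43 in KO3, 15.6 in KO4 and 6.15 in KO5. In the controls it was at 9.39 CPM in WT1, 7.01 in WT2, 6.97 in WT3 and 7.91 in WT4. KO4 stood above all others and KO5 below them. The coefficient of variation over the 9 mice, 33.5%, was the highest among the members that passed the filter, but without KO4 it was 14.8%, below that of Timp4 (28.6%) and Mmp23 (25.7%). The log2 fold change, which leaves KO4 out, was -0.05 ± 0.18 (SE). The gene closest to Timp1 was Bgn (r = 0.99), a matrix proteoglycan, at 985 CPM in KO4 against 478 to 634 CPM in the rest. KO4 also had the highest sums of tendon and of cartilage and bone markers (1193 and 308 CPM), and their part in its Timp1 value was not tested.

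Timp4 (ENSMUSG00000030317, chr6:115241892-115252205, minus strand), the inhibitor known from heart and skeletal muscle, was the scarcest Timp. It was at 8.49 CPM in KO1, 4.32 in KO2, 9.38 in KO3, 8.20 in KO4 and 5.17 in KO5, and at 5.17 CPM in WT1, 9.55 in WT2, 7.07 in WT3 and 7.23 in WT4. Low and high mice occurred in both genotypes, and the log2 fold change was 0.07 ± 0.24 (SE), the widest error among the members. Timp1 lies inside Syn1 and Timp4 inside Syn2, each on the opposite strand, with 0 and 90 shared exonic bases.

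Of the 9 members tested, 6 lay higher and 3 lower in KO1, KO3 and KO5, with a median log2 fold change of 0.02 against -0.01 for all genes tested. Their median absolute log2 fold change was 0.05, against 0.10 for all genes. Without WT2 the median of the members was -0.05. In edgeR 1 member (Mmp23) passed an unadjusted p of 0.05 and 0 members were called at an FDR below 25%, and DESeq2 and limma-voom gave the same counts. The count of 1 in edgeR fell to 0 without KO5 and without WT2. Among all genes tested, 2.08% passed that p in edgeR (453 of 21809), 1.80% in DESeq2 and 1.95% in limma-voom. Called genes were 0% in edgeR and limma-voom and 0.0275% (6 genes) in DESeq2. These counts come from the contrast that chose the members and are given as a description. Each library is a separate animal, so the errors hold the spread between animals.

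KO2 and KO4, which the study left out, are given beside the others as a description, since the controls are the same 4 mice. Against them, 7 of 9 members lay higher and 2 lower in KO2 and KO4, and their median log2 fold change was 0.09. In edgeR and in DESeq2, 0 members passed an unadjusted p of 0.05 and 0 were called, beside 1.31% and 1.04% of all genes that passed that p and 0% (0 genes) and 0.00438% (1 gene) called. Timp1 was highest, with a log2 fold change of 0.54 ± 0.28 (SE), and its mice were far apart, at 7.10 and 15.6 CPM. Mmp23 was next at 0.28 ± 0.20 and Mmp14 at 0.24 ± 0.15. Mmp2 was at 0.09 ± 0.14, Timp2 at 0.13 ± 0.18, Mmp11 at -0.02 ± 0.17 and Timp4 at -0.21 ± 0.32. KO2 and KO4 were both low in Xist (0.136 and 3.23 CPM), whereas WT3 and WT4 exceeded 100 CPM. This comparison thus also differed in Xist level, whose part in the values was not tested.

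**Figure D3:**
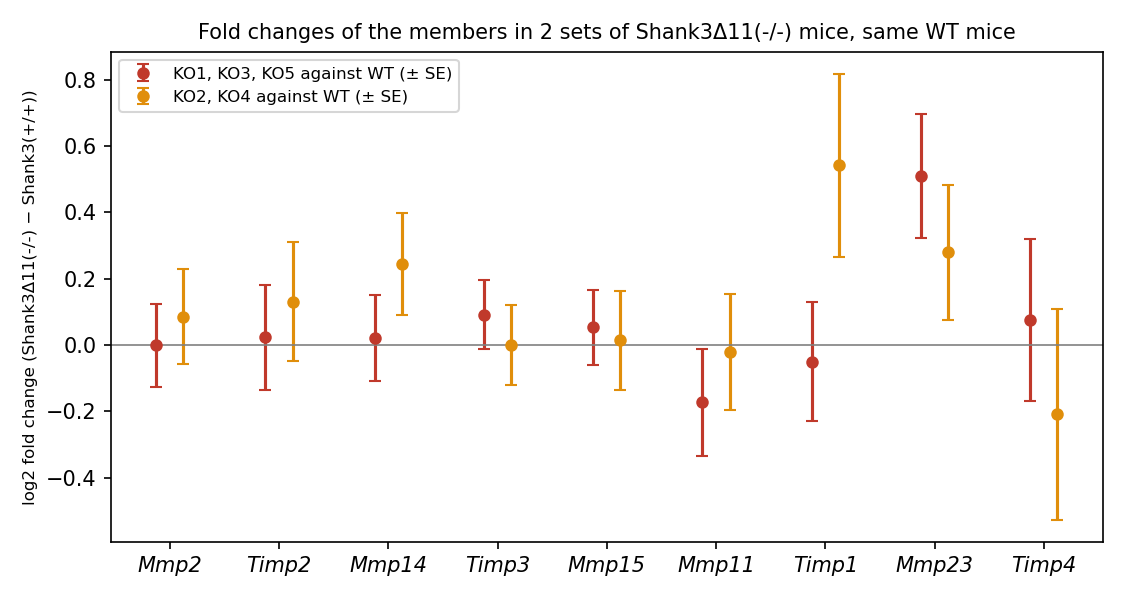
Log2 fold change (y axis, ± SE from edgeR) of the 9 members tested, for KO1, KO3 and KO5 (red) and for KO2 and KO4 (orange) against the same 4 Shank3(+/+) mice. Bars of most genes cross 0. Mmp23 is highest in the red set (0.51) and Timp1 in the orange set (0.54).

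The ratio of inhibitor to enzyme levels overlapped between the genotypes. The summed level per kilobase of the 4 Timps divided by that of the 6 metalloproteinases was 0.665 ± 0.0517 in the mutants (SD, n = 5) and 0.662 ± 0.0640 in the controls (SD, n = 4). Timp2 to Mmp14 was 1.68 ± 0.304 against 1.73 ± 0.213, and Timp2 to Mmp2 was 0.988 ± 0.0542 against 0.965 ± 0.0758. In each of these ratios the difference was smaller than the SD within either genotype. The ratios describe RNA and not the amount of active enzyme.

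Mmp2 and Timp2 varied together from mouse to mouse. Across 9 mice, Pearson's r of log2 CPM was 0.94 (2-sided exact permutation p = 0.000259, adjusted p = 0.00933 over 36 pairs of members). Spearman's rho was 0.93 (exact permutation p = 0.00075, adjusted p = 0.0270). Without KO1 and WT2, the mice farthest from the median of Mmp2, r was 0.89. It was 0.94 within genotypes and 0.92 within mice of high or low Xist, and between 0.92 and 0.96 with each mouse left out in turn. No other pair passed the adjustment, although 4 of the 36 had an unadjusted exact permutation p below 0.05. Mmp14, which works with both proteins, had an r of 0.46 with Mmp2 (adjusted exact permutation p = 0.819) and of 0.42 with Timp2 (0.819). Both values of a point come from the same library and share its scaling.

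**Figure D4:**
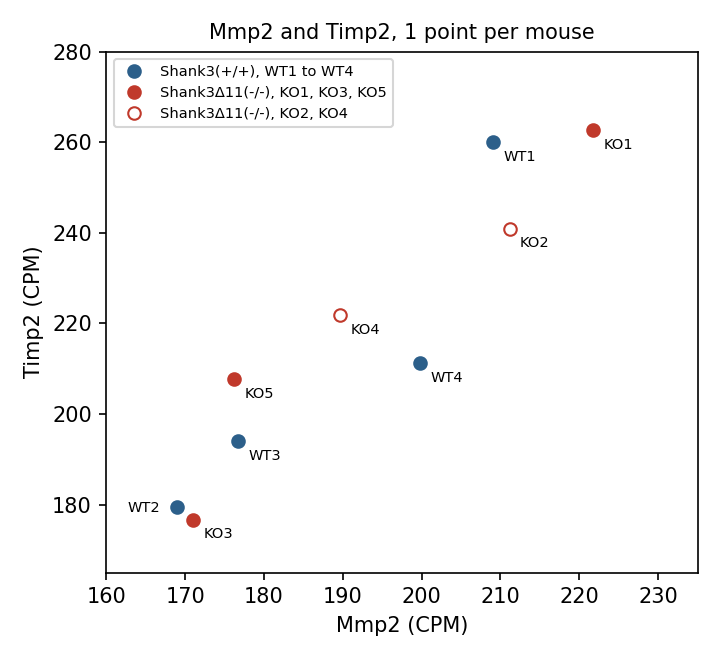
Timp2 (y axis, CPM) against Mmp2 (x axis, CPM), 1 labelled point per mouse, with axes that do not start at 0. Shank3(+/+) mice are blue, KO1, KO3 and KO5 filled red, and KO2 and KO4 open red. Points of both genotypes rise along 1 band, from KO3 and WT2 at the low end to KO1 at the high end (r = 0.94).

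The genes most like each member over the 9 mice were taken from 17975 genes with a mean of at least 1 CPM. Mmp2 was most like Sec61a1 (r = 0.96), a subunit of the channel through which secreted proteins enter the endoplasmic reticulum, and Srpx2 (0.94). Mmp14 was most like Col16a1 (0.97), a fibril-associated collagen, and Cyp4f37 (0.93). Timp2 was most like Itpripl2 (0.98) and C1rb (0.94), and Timp1 like Bgn (0.99) and Egfl6 (0.97), both matrix genes. Mmp23 was most like Dpt (0.97) and Mgl2 (0.96), and Mmp15 like Itpr3 (0.93) and Smtnl2 (0.92). Mmp11 was most like Gm20302 and Gm24865 (both 0.99), Timp3 like Gm13961 (0.97) and Ube4a (0.92), and Timp4 like Gm8580 (0.95) and Gm5054 (0.93). Highest values among so many genes and 9 mice describe these libraries only.

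Other genes of matrix turnover were counted from lists. Among 17 genes for activation, shedding and other inhibition of metalloproteinases, 16 were tested, 10 lay higher and 6 lower, and the median log2 fold change was 0.03. Bsg, a surface protein that induces metalloproteinases, was at 0.01 ± 0.13 and Lrp1, the receptor that clears them, at -0.11 ± 0.14 (log2 fold change, SE). Of 21 Adam and Adamts proteinases, 15 lay higher and 6 lower, with a median of 0.03. Adam10, a sheddase, was at 0.00012 ± 0.12 and Adamts10 at 0.09 ± 0.14. Of 8 cathepsins and other collagen-cutting enzymes, 5 lay higher and 3 lower, with Ctsb at 0.07 ± 0.12 and the procollagen peptidase Bmp1 at 0.01 ± 0.11. Enzymes of these lists thus centred close to 0, as the members did.

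The substrates and the AP-1 regulators were counted in the same way. Of 19 matrix substrates, 7 lay higher and 12 lower, with a median of -0.02, Col1a1 at -0.05 ± 0.22 and Col3a1 at 0.09 ± 0.14. Of 7 AP-1 factors, 3 lay higher and 4 lower, with Jund at -0.05 ± 0.21 and Jun at -0.23 ± 0.21. The lowest of them, Fosb, was at -0.47 ± 0.43, a difference close to its error. In these lists and the other metalloproteinases together, 0 genes passed an unadjusted p of 0.05 in edgeR or in DESeq2, against 2.08% and 1.80% of all genes, and 3 passed it in limma-voom (Mmp9, Mmp13 and the protease inhibitor Serpine2).

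The metalloproteinases that are not members held a pattern of single mice. Of 17, 9 were tested, 3 lay higher and 6 lower, and 4 (Mmp1a, Mmp1b, Mmp7 and Mmp20) had 0 counts in every library. Mmp16, a membrane-type enzyme, was the most abundant and was at -0.04 ± 0.17 (log2 fold change, SE). Mmp9, the gelatinase of leukocytes and osteoclasts, was at 15.1 CPM in KO1, 22.7 in KO2, 0.630 in KO3, 14.6 in KO4 and 0.836 in KO5, and at 16.2, 14.0, 15.8 and 11.5 CPM in WT1 to WT4. Mmp13, a collagenase of cartilage and bone that was singled out after its values were seen, was at 14.98, 15.9, 0.0630, 8.52 and 0.0760 CPM in KO1 to KO5 and at 12.1, 12.6, 6.59 and 6.51 CPM in WT1 to WT4. KO3 and KO5 were far below every other mouse in both genes, while the remaining mutants overlapped the controls.

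The log2 fold changes of -1.37 ± 1.07 for Mmp9 and -0.90 ± 1.48 for Mmp13 (SE, KO1, KO3 and KO5 against the controls) moved when these mice were left out or others added. Without KO3 and KO5, KO1 is the only mutant, and the values were 0.06 and 0.65, with KO1 assumed to vary like the controls. With all 9 mice they were -0.41 and -0.25. Of 11 cartilage and bone markers, 5 were lower in both KO3 and KO5 than in each of the other 7 mice (Runx2, Sp7, Ibsp, Bglap and Acp5, genes of osteoblasts and osteoclasts). The other 6 were not (Acan, Col2a1, Sox9, Matn1, Comp and Col10a1, genes of cartilage). Ibsp, a bone matrix protein, was at 2.17 CPM in KO3 and 1.10 in KO5 against 16.8 to 60.5 CPM in the rest, whereas Sox9 was at 5.26 and 7.52 CPM against 3.35 to 9.04 CPM. Acan (7.86 CPM) and Col2a1 (19.5 CPM) were lowest in KO5 alone and Col10a1 (0.0945 CPM) in KO3 alone. All 11 markers summed to 60.6 and 45.01 CPM against 88.7 to 308 CPM. The part of such tissue in the Mmp9 and Mmp13 values was not tested. Mmp2, Mmp14 and Timp2 in KO3 and KO5 lay between 171 and 208 CPM and within or next to the range of the controls.

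**Figure D5:**
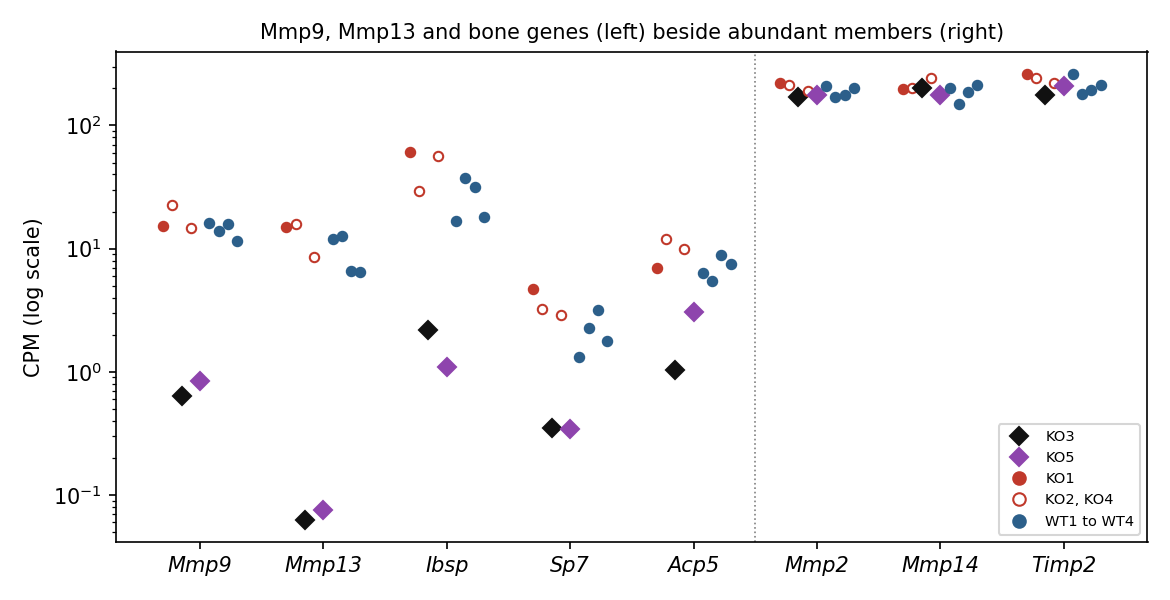
CPM (y axis, log scale) of Mmp9, Mmp13 and Ibsp, Sp7 and Acp5, 3 of the 5 bone genes that were lowest in both mice, (left of the dotted line) and of Mmp2, Mmp14 and Timp2 (right), 1 point per mouse. Diamonds are KO3 (black) and KO5 (purple), red circles the other mutants (open for KO2 and KO4) and blue circles WT1 to WT4. The diamonds lie below all other mice for the 5 genes on the left and close to them on the right, where KO3 is the lowest mouse for Timp2.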

How the data were processed

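RNA of the gastrocnemius of 9 newborn mice was sequenced, 1 library per mouse. The deposited counts are reads per gene that the authors, per their methods and processing notes, obtained with HISAT2 on mm10 and featureCounts, without normalization. Their annotation release, strand setting and handling of multi-mapping reads were not given in the sources used here. Symbols were found for 55144 of 55471 gene IDs. Positions and lengths (union of exons) came from GENCODE M21 on mm10, and promoter windows from RefSeq.

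The members and the gene lists were chosen with earlier results of these data known. CPM were computed here with TMM scaling over the 9 mice in edgeR 4.0.16 (R 4.3.3). After filterByExpr (minimum count 10, minimum total count 15) the robust quasi-likelihood test of edgeR was run on 21809 genes in the 7 mice of the study's comparison and, for KO2 and KO4, on 22823 genes in a model of 3 groups. Adjustment was by Benjamini-Hochberg over all genes tested, and calls needed p below 0.05 and an FDR below 25%, the criterion of the study. From its own limma analysis of these 7 mice the paper reports far more genes at that criterion than the fits here called. The source of that difference was not tested. Log2 CPM for correlations used a prior count of 2. Intervals of counts cover counting error only. Alternatives were all 9 mice, other filters and scalings, DESeq2 1.42.0, limma-voom (limma 3.58.1), quality weights, a replicate block, Xist level as a covariate, thinning to the shallowest library and each mouse left out. The edgeR fits were also run on simulated counts with changes planted in known genes, and no result here rests on that run. DESeq2, limma-voom and the other alternatives were not run on simulated counts.

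Besides the 10 members, the text names the 2 genes of highest mean CPM and any gene of unadjusted p below 0.05 from each list, and the 2 genes of highest r with each member. Mmp13, Mmp1a, Mmp1b, Mmp7, Mmp20, Fosb, the genes of other fits and the marker genes of single mice were named after their values were seen. Plots were drawn with matplotlib 3.10.9.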

Additional observations from a re-analysis of the deposited data

Results flagged for a closer look

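In 44 combinations of a gene and a genotype, 4 held a mouse whose distance from the nearest other mouse was large for the range of its group (Dixon's criterion at 95%), and chance does this in about 1 of 20 groups. Mmp23 was at 25.4 CPM in KO5, where the other 4 mutants were at 16.6 to 17.8 CPM. Mmp16 was at 13.6 CPM in KO3 against 18.4 to 20.1 CPM. Col1a1 was at 12987 CPM in KO4 against 6721 to 8198 CPM, and Jund was at 183 CPM in KO4 against 127 to 138 CPM.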

How the results depend on the processing

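Over 22 alternative settings the median log2 fold change of the members ran from -0.05 to 0.07. Mmp23 stayed above 0 in all of them (0.27 to 0.63) and Mmp15 too (0.00053 to 0.12), whereas the sign of the other 7 tested members turned in at least 1 setting. The 1 member that passed an unadjusted p of 0.05 in edgeR, Mmp23, gave way to 0 members without KO5, without WT2, and in all mice without KO5 (chosen after seeing the data), and leaving out each mouse of the comparison gave 0 to 1. The cause was not tested. With library totals only, 0 members had all 5 mutants above the controls. With the longest transcript as length 6 of 10 members kept their place in the order of levels.

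Genes called at FDR below 25% numbered 0 in edgeR, 1 without a filter on low counts, 6 in DESeq2, 1 with Xist level as a covariate, and 0 to 15 with each mouse left out (15 without KO1, 4 without KO3 and 1 without WT2). Genes of the lists with an unadjusted p below 0.05 numbered 0 in edgeR, 1 in all 9 mice (Adam33), 1 without a filter and 1 with library totals only (both Serpine2), 3 in limma-voom and 3 with quality weights, 1 in all mice without KO5, and 0 to 4 with each mouse left out. For KO2 and KO4, members with such a p numbered 0, with 1 without a filter (Timp1) and 0 with each control left out. Leaving out KO2 or KO4 leaves 1 mutant, so no count is given for those fits.

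Replicate numbers were shared between genotypes. Deviations from the genotype means had an r of 0.37, 0.05, 0.36 and 0.10 for mice of the same number. Pairs of unlike number ran from -0.44 to 0.28, so the highest values, 0.37 and 0.36, were of same-number pairs. Whether the numbers mark a shared batch or litter was not tested. The main fit assumed no pairing, and a block is given as an alternative. With a replicate block in the 7 mice 9 genes were called (844 had an unadjusted p below 0.05), the 1 member with such a p was Timp4 (log2 fold change 0.55), 2 list genes had such a p (Adam8 and Tll1), and the median of the Adam and Adamts list was -0.07. With the block in 9 mice 2 genes were called, 1 list gene passed, and the 1 member with such a p was Mmp23 (log2 fold change 0.31). With 4 controls and 3 to 5 mutants, small differences of scarce genes such as Timp1 and Timp4 could not be seen, and Mmp3 was too low to compare.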
